A study of Mus musculus with 20 samples.

Results

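Bcl6 and Prdm1 encode opposing transcriptional repressors, and their RNA was followed as a pair, 2 genes of the 22878 gene symbols measured, across 12 RNA libraries of sorted mouse CD4 T cells. The members were taken by symbol from the deposited expression tables, where each has a single RefSeq transcript row, NM_009744 for Bcl6 (3285 bases, chromosome 16) and NM_007548 for Prdm1 (5143 bases, chromosome 10). The cells fell into 6 groups of 2 libraries. In the spleen of naive mice, CD4+ CD44-high CD25-negative T cells that carried tdTomato were sorted as ZsGreen+ or ZsGreen-, where ZsGreen reports current expression of T-bet, the Th1 transcription factor encoded by Tbx21. These mice carried a T-bet-ZsGreen-T2A-CreERT2 reporter (ZTCE) together with a Rosa26 loxP-STOP-loxP-tdTomato allele on C57BL/6. CreERT2 is a Cre that acts in the presence of tamoxifen, and no dosing is given in the sources used here. The lymph node cells were taken at day 16 of a response to AS15 peptide given in CFA. Cells that bound the tetramer were divided into Tfh (high in CXCR5 and PD1) and non-Tfh (low in both), and each was split into Tomato+ and Tomato-. All lymph node cells came from T-bet-Cre mice with the same Rosa26 tdTomato allele on C57BL/6, so Tomato marks present or past T-bet expression. Age, sex and the number of mice behind a library are not given in the sources used here, so p-values measure the spread between libraries, which may be technical.

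BCL6 is a BTB zinc finger repressor that is required for follicular helper T (Tfh) cells, the CD4 T cells that help B cells in germinal centres. Blimp-1, the product of Prdm1, is a PR domain zinc finger repressor that drives plasma cells and terminally differentiated effector T cells. Each represses the gene of the other, so a T cell tends to hold more of BCL6 or more of Blimp-1. Signals through STAT3 (from IL-6 and IL-21) favour Bcl6, and IL-2 acting through STAT5 favours Prdm1 and restrains Bcl6.

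The sequences before the RefSeq starts of both genes are shown because STAT factors and BCL6 read related DNA elements, whose letters can be looked for there. Each line gives the 250 bases before a start on GRCm38.p6, all on the minus strand and read 5′ to 3′ in the direction of the gene. RefSeq lists 2 starts for Bcl6 and 1 for Prdm1 in the table used. Capitals mark every match to TTCNNNGAA, the STAT-type element.
Bcl6, first start, chr16:23988853-23989102: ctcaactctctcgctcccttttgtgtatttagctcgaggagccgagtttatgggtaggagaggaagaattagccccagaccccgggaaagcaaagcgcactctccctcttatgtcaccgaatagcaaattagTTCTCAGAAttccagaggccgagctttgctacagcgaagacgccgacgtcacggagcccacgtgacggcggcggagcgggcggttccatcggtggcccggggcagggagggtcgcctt
Bcl6, second start, chr16:23981284-23981533: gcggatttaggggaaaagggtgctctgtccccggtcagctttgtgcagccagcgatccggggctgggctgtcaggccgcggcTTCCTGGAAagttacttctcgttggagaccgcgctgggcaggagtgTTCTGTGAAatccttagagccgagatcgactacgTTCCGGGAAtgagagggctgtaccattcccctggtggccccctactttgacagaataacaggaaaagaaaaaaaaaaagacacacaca
Prdm1, chr10:44458749-44458998: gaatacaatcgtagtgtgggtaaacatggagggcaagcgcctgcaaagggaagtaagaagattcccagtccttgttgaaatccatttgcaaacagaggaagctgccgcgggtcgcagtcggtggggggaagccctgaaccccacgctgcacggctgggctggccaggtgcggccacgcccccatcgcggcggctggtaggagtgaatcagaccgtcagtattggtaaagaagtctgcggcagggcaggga
The first Bcl6 window held 1 STAT-type match, beginning 118 bases before the start. The second held 3, beginning 168, 122 and 88 bases before it, and the first of these also matched TTCCTNGAA, a BCL6-type element that lies wholly within the STAT-type pattern. The Prdm1 window held no match to these letters, and none of the 3 windows matched AGTGAAAG, a Blimp-1-type element. On GRCm38 the Prdm1 gene spans 44437174 to 44528558, so its window lies inside the gene. The sequence before the upstream end of Prdm1 was not searched. Both strands were searched. Among 32851 windows of the same length, 7.02% held the STAT-type letters, 1.31% the BCL6-type letters and 1.09% the Blimp-1-type letters. A match describes letters only, and no binding was measured.

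The second non-Tfh Tomato- library stood apart from the other lymph node libraries. On the first principal component of their log2 counts, which held 20.7% of the variance, it lay at 191, against -55.0 to 12.2 for the other 7. It was also the shallowest. Calls of Bcl6 or Prdm1 that change without it are given beside the result.

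Bcl6 RNA was highest in Tfh cells. It stood at 110.3 and 95.2 RPKM (reads scaled by transcript length and library depth) in Tfh Tomato+ cells and at 139 and 101 RPKM in Tfh Tomato- cells. Non-Tfh cells had 23.7 and 21.9 RPKM when Tomato+ and 31.6 and 21.1 RPKM when Tomato-. In the spleen, ZsGreen+ cells had 5.30 and 4.89 RPKM and ZsGreen- cells 11.6 and 10.05 RPKM. The 3 sources did not overlap: every Tfh library was above every non-Tfh library, and every non-Tfh library was above every spleen library. Within each lymph node population the Tomato+ and Tomato- libraries overlapped, while the ZsGreen+ and ZsGreen- libraries did not. By group mean the order was Tfh Tomato- (119.8 ± 27.1 RPKM), Tfh Tomato+ (103 ± 10.7), non-Tfh Tomato- (26.3 ± 7.45), non-Tfh Tomato+ (22.8 ± 1.28), spleen ZsGreen- (10.8 ± 1.06) and spleen ZsGreen+ (5.10 ± 0.289) (SD, n = 2 each). The highest group mean was 23.5 times the lowest. Spleen and lymph node cells differ in strain, tissue and sort and were fitted apart, so a difference between them is a description with no test.

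Prdm1 RNA ran over a lower range and showed another order. Spleen ZsGreen+ cells had 7.11 and 7.81 RPKM, above every other library, and ZsGreen- cells had 4.95 and 4.13 RPKM. Tfh Tomato+ cells had 0.136 and 3.70 RPKM, and Tfh Tomato- cells had 0.180 and 1.55 RPKM. Non-Tfh Tomato+ cells had 2.73 and 6.02 RPKM, and non-Tfh Tomato- cells had 5.24 and 6.02 RPKM. Among Tomato- cells the Tfh libraries lay below the non-Tfh libraries, whereas among Tomato+ cells the second Tfh library lay above the first non-Tfh library. The group means ran from 7.46 ± 0.492 RPKM in spleen ZsGreen+ cells through 5.63 ± 0.551 in non-Tfh Tomato-, 4.54 ± 0.583 in spleen ZsGreen-, 4.37 ± 2.32 in non-Tfh Tomato+ and 1.92 ± 2.52 in Tfh Tomato+ to 0.866 ± 0.971 RPKM in Tfh Tomato- cells (SD, n = 2 each). In that order spleen ZsGreen+, non-Tfh Tomato- and spleen ZsGreen- libraries did not overlap with each other, and from spleen ZsGreen- cells downwards the libraries of neighbouring groups overlapped.

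**Figure D1:**
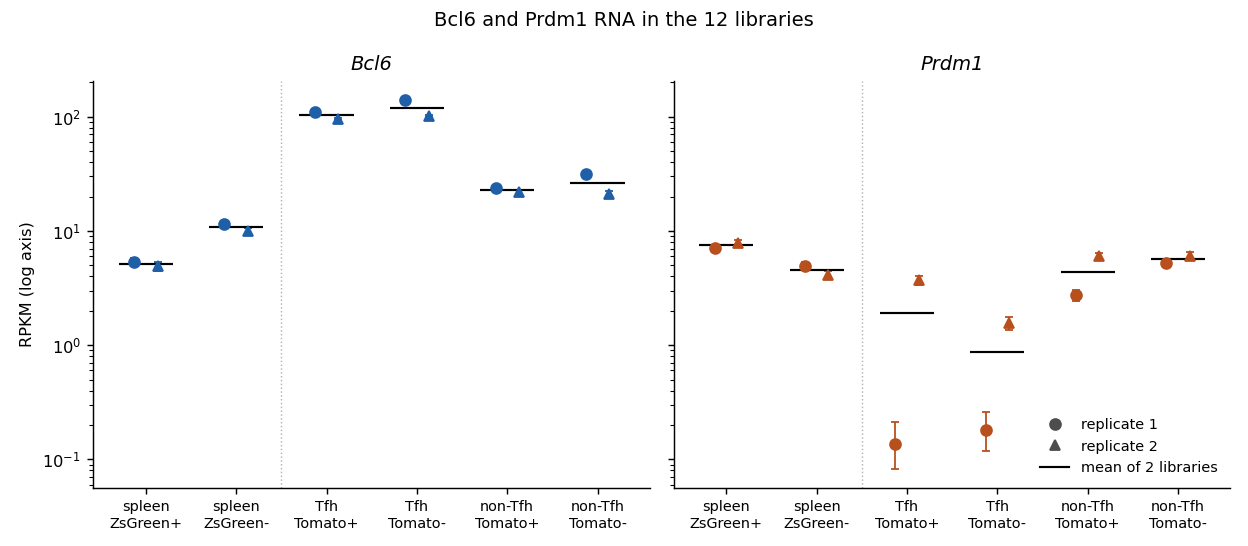
RPKM of Bcl6 (left panel) and Prdm1 (right panel) on a shared log axis, in the 6 groups. Each symbol is a library, its bar the 95% Poisson interval of its reads, and the black line the mean of 2 libraries. Bcl6 lies between 95.2 and 139 RPKM in the 4 Tfh libraries, and the first replicates of both Tfh groups have Prdm1 near 0.1 RPKM.

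The reads behind these levels differ greatly between the members. Bcl6 was covered by 441 to 13332 reads per library. Prdm1 was covered by 680 to 1275 reads in the spleen libraries and by 327 to 830 reads in the non-Tfh libraries. In Tfh cells it had 19 and 445 reads when Tomato+ and 27 and 205 reads when Tomato-. The exact 95% Poisson interval of the 19 reads was 11.4 to 29.7 reads (0.0820 to 0.213 RPKM), and that of the 27 reads was 17.8 to 39.3 reads (0.118 to 0.262 RPKM). These intervals cover counting error only, and the replicate gap within Tfh cells, 27.2-fold in Tomato+ and 8.64-fold in Tomato- cells, is far outside them. The Tfh Tomato+ mean of Prdm1, 1.92 RPKM, lies in a range where replicates often differed. Of genes with a group mean of 1 to 10 RPKM, 17.0% to 29.1% differed at least 10-fold between the replicates of a lymph node group, against 0.0393% to 0.0779% in a spleen group (on RPKM + 0.1). The Tfh Tomato- mean of Prdm1, 0.866 RPKM, lies below that range. At 20 to 200 RPKM, where lymph node Bcl6 lies, the median replicate difference of a lymph node group was 0.33 to 0.42 on the log2 scale, and that of Bcl6 was 0.11 to 0.58.

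Within a library, Bcl6 exceeded 94.6% to 96.7% of detected genes in Tfh cells and 72.4% to 82.1% in non-Tfh cells. In the spleen it exceeded 51.8% and 49.5% of detected genes in ZsGreen+ libraries, against 67.1% and 64.7% in ZsGreen- libraries. Prdm1 exceeded 9.70% to 35.0% of detected genes in Tfh cells and 29.8% to 47.4% in non-Tfh cells. In ZsGreen+ spleen cells it exceeded 57.1% and 58.0% of detected genes, and in ZsGreen- cells 51.2% and 48.1%. The 2 genes therefore changed places in the spleen, with Prdm1 ranked above Bcl6 in both ZsGreen+ libraries and below it in both ZsGreen- libraries.

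The ratio of Bcl6 to Prdm1, taken on RPKM and so per length of transcript, put these levels on a single axis. It was 0.745 and 0.627 in spleen ZsGreen+ cells and 2.33 and 2.44 in spleen ZsGreen- cells. It was 809.7 and 25.7 in Tfh Tomato+ cells and 773 and 64.9 in Tfh Tomato- cells. Non-Tfh cells had ratios of 8.68 and 3.64 when Tomato+ and of 6.03 and 3.50 when Tomato-. The ratio was below 1 only in the 2 ZsGreen+ libraries, and the lowest Tfh ratio, 25.7, was above the highest non-Tfh ratio, 8.68. The ratios of 809.7 and 773 rest on the 19 and 27 Prdm1 reads, so their size is set by few reads. On the log2 scale the mean ratio was 7.17 ± 3.52 in Tfh Tomato+, 7.81 ± 2.53 in Tfh Tomato-, 2.49 ± 0.89 in non-Tfh Tomato+ and 2.20 ± 0.56 in non-Tfh Tomato- cells. It was -0.55 ± 0.18 in spleen ZsGreen+ and 1.25 ± 0.04 in spleen ZsGreen- cells (SD, n = 2 each). The ratio is built from the chosen members and is described without a test.

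**Figure D2:**
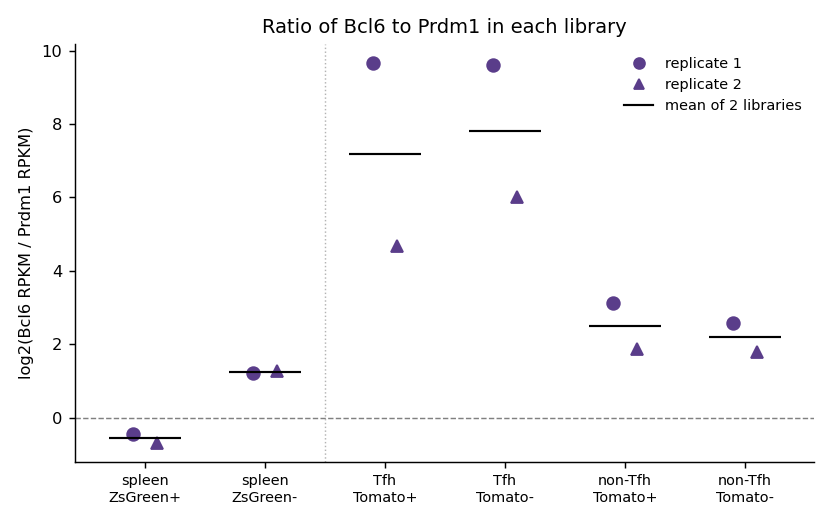
The log2 of the ratio of Bcl6 RPKM to Prdm1 RPKM in each library, by group. Symbols are libraries and black lines the means of 2 libraries, and the dashed line marks equal levels. The 2 ZsGreen+ libraries lie below that line, and the 4 Tfh libraries lie between 4.68 and 9.66.

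The sorting genes were checked first. Tbx21 stood at 193 and 214 RPKM in ZsGreen+ and at 46.4 and 45.3 RPKM in ZsGreen- spleen cells. In Tfh cells it stood at 106 and 53.0 RPKM in Tomato+ and 12.8 and 12.9 RPKM in Tomato- libraries, and in non-Tfh cells at 183 and 163 RPKM in Tomato+ and 10.4 and 10.5 RPKM in Tomato- libraries. Cxcr5 ranged from 258 to 394 RPKM in Tfh and from 27.8 to 113 RPKM in non-Tfh libraries, and Pdcd1, which encodes PD1, from 542 to 715 RPKM and from 89.9 to 183 RPKM. Ifng, the Th1 cytokine gene, was not part of a sort. It stood at 87.2 and 91.3 RPKM in Tomato+ Tfh cells, against 10.5 and 1.03 RPKM in Tomato- Tfh cells. Cd3d, Cd3e, Cd3g and Cd4, which define CD4 T cells, were present in all 12 libraries, Cd4 at 189 to 444 RPKM. Total reads over genes ranged from 13169783 to 24174592 per library, with 15080 to 15326 genes detected in spleen and 11154 to 11805 in lymph node libraries.

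Spleen ZsGreen+ cells, which express the T-bet reporter, held less Bcl6 and more Prdm1 than ZsGreen- cells. Bcl6 fell by 1.12 ± 0.11 on the log2 scale (SE), a 2.17-fold lower level in ZsGreen+ than in ZsGreen- cells, with edgeR's quasi-likelihood test giving a Benjamini-Hochberg adjusted p of 6.07e-05. Prdm1 rose by 0.68 ± 0.11, 1.60-fold (95% interval 1.36 to 1.89), with an edgeR adjusted p of 0.00129. Both replicates of a group lay on the same side for each gene. In this comparison 23.8% of tested genes passed (3074 of 12918), so passing is common here. The log2 ratio of Bcl6 to Prdm1 was -0.55 in ZsGreen+ and 1.25 in ZsGreen- cells, a difference of -1.80 (ratio 0.287 of that in ZsGreen- cells). Both calls held in every one of 12 alternative settings each, including each library left out. In bulk RNA of sorted cells, fewer cells of a type and less RNA per cell cannot be told apart, here and in every comparison that follows.

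Markers of several cell types moved with this spleen comparison, in which 23.8% of all tested genes passed. All 10 listed genes of NK and innate-like T cells rose in ZsGreen+ cells, and their summed level was 334 to 400 RPKM in ZsGreen+ and 117 to 119 RPKM in ZsGreen- libraries. Zbtb16, which encodes the innate-like T cell factor PLZF and is a BTB zinc finger relative of Bcl6, had 23.2 and 25.2 RPKM in ZsGreen+ cells, against 1.97 and 1.45 RPKM in ZsGreen- cells. Of 8 regulatory T cell genes 6 fell and 2 rose, with summed levels of 256 to 290 RPKM in ZsGreen+ and 363 to 378 RPKM in ZsGreen- libraries. Without the second library of either spleen group 1 of these genes rose in place of 2. Foxp3, the defining factor of regulatory T cells, a cell type in which Prdm1 is also known to be active, had 5.50 and 5.13 RPKM in ZsGreen+ and 32.5 and 36.1 RPKM in ZsGreen- cells. Of 8 CD4 T cell genes 4 fell, with sums of 2067 to 2130.5 RPKM in ZsGreen+ and 2560 to 2594 RPKM in ZsGreen- libraries. Of 6 plasma cell genes Igj and Irf4 fell and 4 did not pass, with sums of 115 to 117 RPKM in ZsGreen+ and 121 to 123 RPKM in ZsGreen- libraries, and both tested germinal centre B cell genes, Fas and Mef2b, fell. The summed dendritic cell list was 281 to 294 RPKM in ZsGreen+ and 228 to 245 RPKM in ZsGreen- libraries, with 2 of 9 genes called higher. The summed neutrophil list was 1138 to 1192 RPKM in ZsGreen+ and 775 to 1047 RPKM in ZsGreen- libraries, with 1 of 9 genes called higher, and 3 to 7 with a library left out. The summed macrophage and monocyte list overlapped, with 490 to 603 RPKM in ZsGreen+ and 474 to 501 RPKM in ZsGreen- libraries. Of its 12 genes 2 were called higher and 1 lower. The part of these cell types in the Bcl6 and Prdm1 differences was not tested.

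Genes reported as targets of the 2 repressors split in both directions in the spleen. Of 18 reported BCL6-repressed genes 9 rose and 7 fell in ZsGreen+ cells, with a median log2 change of 0.26, against 0.0044 over all genes tested. The counts of this and the next lists stand beside 23.8% of all tested genes that passed in either direction. Tbx21, reported as repressed by BCL6 and the gene behind this sort, rose by 2.11 ± 0.08, and Id2, an inhibitor of E proteins that restrains Tfh differentiation, rose by 2.48 ± 0.13 and had 1219 and 1418 RPKM in ZsGreen+ against 262 and 199 RPKM in ZsGreen- cells. A pair of chemokine receptor genes of the same list fell, Ccr6 by 3.13 ± 0.15 and Ccr7, which guides cells to the T cell zone, by 2.05 ± 0.11 (edgeR adjusted p at most 1.59e-06 for these 4 genes). Of 13 reported Blimp-1-repressed genes 6 fell and 4 rose, with a median of -0.04. Those that fell included Id3, an E protein inhibitor that fell by 2.89 ± 0.08, Cxcr5 by 2.47 ± 0.11 and Tcf7, which encodes the Tfh and memory factor TCF1, by 1.70 ± 0.09. Of 9 tested genes reported to need Blimp-1 5 fell and 2 rose, with a median of -0.48. Gzmb, which encodes granzyme B, rose by 1.02 ± 0.14, whereas the inhibitory receptor genes Ctla4 and Tigit fell by 2.46 ± 0.14 and 2.26 ± 0.16. Without the second ZsGreen+ library 3 genes of this list fell in place of 5.

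Listed inducers of Bcl6 and genes of the Tfh programme mostly moved with Bcl6 in the spleen. Of 17 listed inducers of Bcl6 and the Tfh programme 13 fell in ZsGreen+ cells and 2 rose, with a median log2 change of -0.63. Among all tested genes 23.8% passed here in either direction. Tox2, an HMG box factor of Tfh cells, had 3.65 and 3.33 RPKM in ZsGreen+ against 41.1 and 47.2 RPKM in ZsGreen- cells. Il6ra, a receptor chain for IL-6, had 23.0 and 18.9 RPKM in ZsGreen+ against 77.3 and 69.7 RPKM in ZsGreen- cells, and its signalling partner Il6st had 7.85 and 7.18 RPKM against 23.1 and 23.6 RPKM. Without the first ZsGreen+ library 0 genes of the list rose, and 1 rose without the second ZsGreen+ library or without the first ZsGreen- library. Of 12 genes of the IL-2 and STAT5 axis and restrainers of Bcl6 5 rose and 7 fell. Among them Il2rb, a signalling chain of the IL-2 receptor, had 751 and 878 RPKM in ZsGreen+ against 238 and 225 RPKM in ZsGreen- cells, and Il2ra, the high-affinity chain CD25, which the sort selected against, had 10.5 and 13.6 RPKM against 3.16 and 2.64 RPKM. Runx3, a Th1 and cytotoxic factor, rose by 0.77 ± 0.07, while Foxo1, a forkhead factor that restrains Tfh cells, fell by 0.85 ± 0.10 (edgeR adjusted p = 0.000163).

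The share of cofactors and relatives that passed is to be read against the 23.8% of all tested genes that passed in this comparison. Of 18 BCL6 corepressors and partners 3 rose in ZsGreen+ spleen cells, Hdac5 by 0.42 ± 0.09, Cul3, the ubiquitin ligase scaffold that acts with BCL6, by 0.44 ± 0.11 and Kdm2b by 0.30 ± 0.08, and 1 gene of the list rose without the second ZsGreen+ library. Of 10 Blimp-1 cofactors Tle4 rose by 0.70 ± 0.09, while Tle3 and the histone methyltransferase gene Ezh2 fell by 0.71 ± 0.08 and 0.70 ± 0.10. Of 18 tested BTB zinc finger relatives of Bcl6 5 rose and 2 fell. Zbtb16 rose by 3.79 ± 0.13, and Hic1, a tumour suppressor gene, by 1.71 ± 0.12, while Zbtb32 fell by 1.97 ± 0.16 (edgeR adjusted p at most 1.68e-05 for these 3).

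In the lymph node, Bcl6 was higher in Tfh than in non-Tfh cells. Averaged over Tomato states it was 4.32-fold higher (95% interval 3.17 to 5.88), a log2 difference of 2.11 ± 0.19, with an edgeR adjusted p of 0.00376, and it ranked 9 by p among 11746 genes, of which 1.07% passed (126 genes). The difference was 2.08 ± 0.27 among Tomato+ cells, where the edgeR adjusted p of 0.0521 missed the threshold of 0.05 and 0.0766% of genes passed. It was 2.14 ± 0.27 among Tomato- cells, where the edgeR adjusted p was 0.0300 and 0.179% of genes passed. Without the second non-Tfh Tomato- library the averaged difference was 1.98 and passed, and that among Tomato- cells was 1.89 and did not (edgeR adjusted p = 0.17). That among Tomato+ cells was 2.08 without it and passed. The averaged difference passed in each of 17 alternative settings, whereas the 2 single contrasts crossed the threshold in some of them. The pairwise and averaged contrasts share their libraries and are not independent of each other.

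The difference in Prdm1 between Tfh and non-Tfh cells did not pass the test, and its error was wide. Averaged over Tomato states the log2 difference was -2.03 ± 1.06 (edgeR adjusted p = 0.501), with a 95% interval from -4.47 to 0.41. It was -1.30 ± 1.47 among Tomato+ cells (edgeR adjusted p = 0.959) and -2.76 ± 1.55 among Tomato- cells (edgeR adjusted p = 0.642). Over the 8 fits that leave out a library it ran from -3.92, without the second Tfh Tomato+ library, to -1.56, without the first. The log2 ratio of Bcl6 to Prdm1 averaged 7.49 in Tfh and 2.35 in non-Tfh cells, a difference of 5.14, with the 4 Tfh libraries all above the 4 non-Tfh libraries. Without the first Tfh Tomato+ library that difference was 3.9, and with log2(RPKM + 1) before the ratio it was 3.68.

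**Figure D3:**
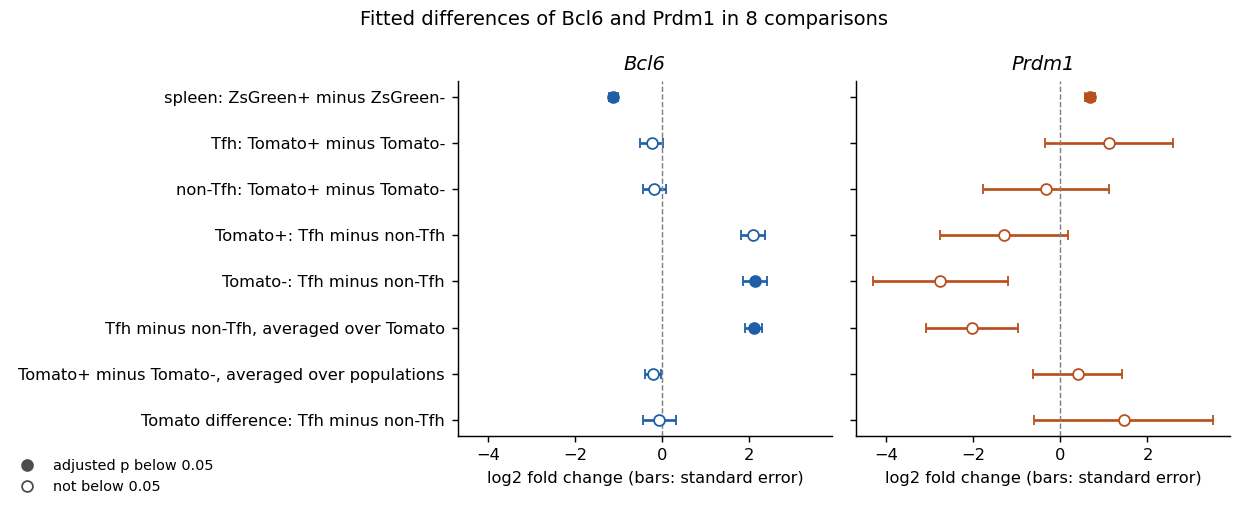
Fitted log2 fold changes of Bcl6 (left panel) and Prdm1 (right panel) in the 8 comparisons, with standard errors as bars. Filled circles passed an edgeR adjusted p below 0.05. Standard errors of Prdm1 in the lymph node are 1.03 to 2.06, against 0.19 to 0.37 for Bcl6.

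Marker genes of regulatory T cells and of antibody-secreting and germinal centre B cells, in which Prdm1 or Bcl6 is known to be active, were followed in the same libraries. The summed regulatory T cell list was 437 to 647 RPKM in Tfh and 728 to 908 RPKM in non-Tfh libraries, with no overlap. Averaged over Tomato states, no gene of 8 passed with edgeR. DESeq2 called 4 lower, in a comparison in which it called 815 of 13435 genes. Foxp3 had 1.35 to 7.18 RPKM in Tfh and 10.007 to 23.1 RPKM in non-Tfh libraries. Tnfrsf17, the BCMA gene of plasma cells, had 0 reads in all 8 lymph node libraries. Of the 6 plasma cell genes in the files, Derl3, a factor of the secretory pathway, had 0 and 17.6 RPKM in Tfh Tomato+ and 5.02 and 14.9 RPKM in non-Tfh Tomato+ libraries. It had 0.0769 and 0.0291 RPKM in Tfh Tomato- and 10.2 and 0.0394 RPKM in non-Tfh Tomato- libraries. It was thus higher in the replicate with more Prdm1 in both Tomato+ groups, and in the replicate with less Prdm1 in both Tomato- groups. Igj, the J chain gene, had 83.2 and 151 RPKM in Tfh Tomato+ and 18.7 and 52.7 RPKM in Tfh Tomato- libraries. It had 99.1 and 205 RPKM in non-Tfh Tomato+ and 40.03 and 44.4 RPKM in non-Tfh Tomato- libraries. Igj was higher in the replicate with more Prdm1 in each group, which was the second replicate every time. In non-Tfh Tomato- cells the Poisson intervals of Prdm1 overlapped (4.85 to 5.66 and 5.55 to 6.53 RPKM). The summed plasma cell list, which holds the T cell genes Irf4 and Xbp1 as well, ran from 161 to 274 RPKM in Tfh and from 182 to 446 RPKM in non-Tfh libraries. From first to second replicate it was 265 and 274 RPKM in Tfh Tomato+ and 281 and 446 RPKM in non-Tfh Tomato+ libraries. In Tomato- libraries it was 163 and 161 RPKM in Tfh and 253 and 182 RPKM in non-Tfh cells. Of the germinal centre B cell genes, Mybl1 had 0 RPKM in all 8 lymph node libraries. The summed germinal centre list, to which Fas and Mef2b also belong, was 52.0 to 78.4 RPKM in Tfh and 12.5 to 42.6 RPKM in non-Tfh libraries. Of its 5 genes in the files only 2 had at least 1 RPKM in each Tfh library. Neither of the 2 tested genes passed with edgeR in the averaged comparison. The summed B cell list overlapped between the populations, with 105 to 140.0 RPKM in Tfh and 106 to 136 RPKM in non-Tfh libraries. The part of these transcripts in the Bcl6 and Prdm1 values was not tested.

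Genes reported as BCL6-repressed were lower in Tfh cells where they passed. Of 18 tested 6 fell and the others did not pass, with a median log2 difference of -0.88, against 0.0087 over all genes tested. Among all tested genes 1.07% passed in this averaged comparison. S1pr1, the egress receptor gene, had 69.1 and 65.5 RPKM in Tfh Tomato+ and 41.2 and 37.6 RPKM in Tfh Tomato- cells, against 150.0 and 121 RPKM in non-Tfh Tomato+ and 239 and 247 RPKM in non-Tfh Tomato- cells. Selplg, which encodes the selectin ligand PSGL-1, fell by 1.45 ± 0.11, Gpr183, the EBI2 gene, by 0.85 ± 0.11 and Id2 by 1.08 ± 0.14 (edgeR adjusted p at most 0.0131). Ccr7 and Il7r, the chain of the IL-7 receptor, were the other 2. With DESeq2, which called 815 of 13435 genes in this comparison, 11 genes of this list fell. Without the second Tfh Tomato+ library 3 fell, and 3 fell when the second Tomato- library of both populations was left out. These genes are reported targets in the literature, and their fall beside a rise of Bcl6 is a description.

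Listed inducers of Bcl6 and genes of the Tfh programme rose with Bcl6 in Tfh cells where they passed. Of 17 tested 4 rose, with a median log2 difference of 0.74. In this averaged comparison 1.07% of all tested genes passed with edgeR, and DESeq2 called 815 of 13435 genes. Ascl2, a basic helix-loop-helix factor of early Tfh cells, had 38.6 and 51.9 RPKM in Tfh Tomato+ and 80.8 and 44.7 RPKM in Tfh Tomato- cells, against 0.160 to 0.686 RPKM in the 4 non-Tfh libraries. Tox rose by 2.04 ± 0.18, Tox2 by 2.30 ± 0.33 and Il21, the Tfh cytokine gene, by 2.77 ± 0.45 (edgeR adjusted p at most 0.0358). With DESeq2 7 rose and 2 fell, and 2 rose without the first non-Tfh Tomato- library, where 1 fell. Of 13 reported Blimp-1-repressed genes Fos, an AP-1 subunit gene, rose by 0.91 ± 0.09 and Cxcr5 by 2.20 ± 0.26, while Ccr7 fell by 1.54 ± 0.25. No gene of this list passed when the second Tomato- library of both populations was left out, and none fell in 5 of the 8 fits that leave out a library. Of 9 tested genes reported to need Blimp-1 Tigit rose by 0.95 ± 0.16, and no gene of this list rose in 7 of those 8 fits. Of 12 genes of the IL-2 and STAT5 axis Id2 fell. With DESeq2 5 genes of that list fell, 2 fell without the second Tfh Tomato- library, and 0 fell without the second Tfh Tomato+ library, without the first non-Tfh Tomato+ library or when the second Tomato- library of both populations was left out. Of 18 BCL6 corepressors, 8 tested Blimp-1 cofactors, 7 tested Prdm relatives and 18 tested BTB relatives none did with edgeR, while DESeq2 called 1 corepressor and 1 Blimp-1 cofactor, both lower. Il10, a cytokine gene among those reported to need Blimp-1, had 0.113 and 0.197 RPKM in Tfh Tomato+ and 4.04 and 0.209 RPKM in Tfh Tomato- cells. It had 48.6 and 22.5 RPKM in non-Tfh Tomato+ and 1.01 and 1.65 RPKM in non-Tfh Tomato- cells. Il10 was named after its values were seen.

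Past or present T-bet expression, marked by Tomato, went with no called change of either gene in the lymph node. In Tfh cells Bcl6 differed by -0.24 ± 0.26 on the log2 scale (edgeR adjusted p = 1, 95% interval -0.84 to 0.37) and Prdm1 by 1.13 ± 1.47 (edgeR adjusted p = 1, 95% interval -2.24 to 4.50), in a comparison in which 0.111% of genes passed. In non-Tfh cells Bcl6 differed by -0.18 ± 0.26 (edgeR adjusted p = 0.937, 95% interval -0.78 to 0.43) and Prdm1 by -0.33 ± 1.45 (edgeR adjusted p = 0.994, 95% interval -3.65 to 3.0), and 0.332% of genes passed. Averaged over both populations the difference was -0.21 ± 0.19 for Bcl6 (edgeR adjusted p = 0.814) and 0.40 ± 1.03 for Prdm1 (edgeR adjusted p = 0.979), and 0.656% of genes passed (77 genes). The log2 ratio of Bcl6 to Prdm1 averaged 4.83 in Tomato+ and 5.003 in Tomato- cells, and the libraries overlapped. As folds, the 95% intervals of Bcl6 ran from 0.559 to 1.29 in Tfh and from 0.581 to 1.35 in non-Tfh cells, while those of Prdm1 ran from 0.211 to 22.6 in Tfh and from 0.0796 to 7.98 in non-Tfh cells.

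The Tomato difference was also compared between Tfh and non-Tfh cells. The interaction was -0.06 ± 0.37 for Bcl6 and 1.45 ± 2.06 for Prdm1 (edgeR adjusted p = 1 for each). No gene passed this test with edgeR (0% of 11746 genes), 746 genes had an unadjusted p below 0.05, DESeq2 called 210 genes and limma called 0. Leaving out the second Tfh Tomato+ library turned the Prdm1 value to -2.33.

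Several reported targets moved with Tomato although Bcl6 and Prdm1 were not called. Of 18 reported BCL6-repressed genes 4 rose in Tomato+ cells averaged over both populations, with a median log2 difference of 0.16. Over all genes tested the median was 0.0037, and 0.656% of them passed. Tbx21, which the sort selected, rose by 3.35 ± 0.25, Selplg by 1.32 ± 0.11, Id2 by 1.12 ± 0.14 and Cxcr3, a Th1 chemokine receptor gene, by 1.58 ± 0.19 (edgeR adjusted p at most 0.0106). Without the first non-Tfh Tomato+ library 2 rose, and 2 rose when the second Tomato- library of both populations was left out. Of 9 tested genes reported to need Blimp-1 Klrg1, a receptor gene of terminal effector cells, rose by 5.49 ± 0.70 and Havcr2, the TIM-3 gene, by 2.47 ± 0.42. Klrg1 had 25.5 and 11.9 RPKM in Tomato+ against 1.38 and 4.67 RPKM in Tomato- Tfh cells, and 35.4 and 52.4 RPKM in Tomato+ against 0.151 and 0.116 RPKM in Tomato- non-Tfh cells. No gene of this list rose without the second non-Tfh Tomato+ library, 2 rose without the second non-Tfh Tomato- library and 1 rose without each of the others. Of 13 reported Blimp-1-repressed genes Tbx21 and Ifng, which rose by 5.69 ± 0.67, were higher and Fos, which fell by 0.58 ± 0.09, was lower, with a median of -0.52, and none fell in any fit that leaves out a library. Of 17 listed inducers of Bcl6 and the Tfh programme Il6ra fell by 1.24 ± 0.15. With DESeq2, which called 697 of 13435 genes in this comparison, 4 fell. No gene of that list fell without the first Tfh Tomato+ library, without the second non-Tfh Tomato+ library or when the second Tomato- library of both populations was left out. Sums of myeloid markers moved with Tomato. The summed macrophage and monocyte list was 208 to 445 RPKM in Tomato+ and 998 to 1349 RPKM in Tomato- libraries. The summed dendritic cell list was 194 to 273 RPKM in Tomato+ and 599.9 to 1334 RPKM in Tomato- libraries. Averaged over both populations, 2 of 12 macrophage and monocyte genes and 2 of 8 tested dendritic cell genes fell with edgeR. None of 6 tested neutrophil genes passed. The summed neutrophil list was 450.03 and 366 RPKM in the second Tomato- library of Tfh and of non-Tfh cells and 87.7 RPKM in the first non-Tfh Tomato+ library, against 0.754 to 10.2 RPKM in the other 5. The summed list of NK and innate-like T cells was 103 to 121 RPKM in Tomato+ and 151 to 283 RPKM in Tomato- libraries. Its genes did not move together: averaged over both populations, 1 of 9 tested rose in Tomato+ cells and 2 fell. Their median log2 difference was 0.62, so the median and the sum went opposite ways. The summed plasma cell list was 265 to 446 RPKM in Tomato+ and 161 to 253 RPKM in Tomato- libraries. Regulatory T cell sums in Tfh cells were 558 to 647 RPKM in Tomato+ and 437 to 529 RPKM in Tomato- libraries. In non-Tfh cells they were 853 to 908 RPKM and 728 to 800 RPKM. No tested gene of either list passed with edgeR in the averaged Tomato comparison. The part of these cell types in the differences was not tested.

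**Figure D4:**
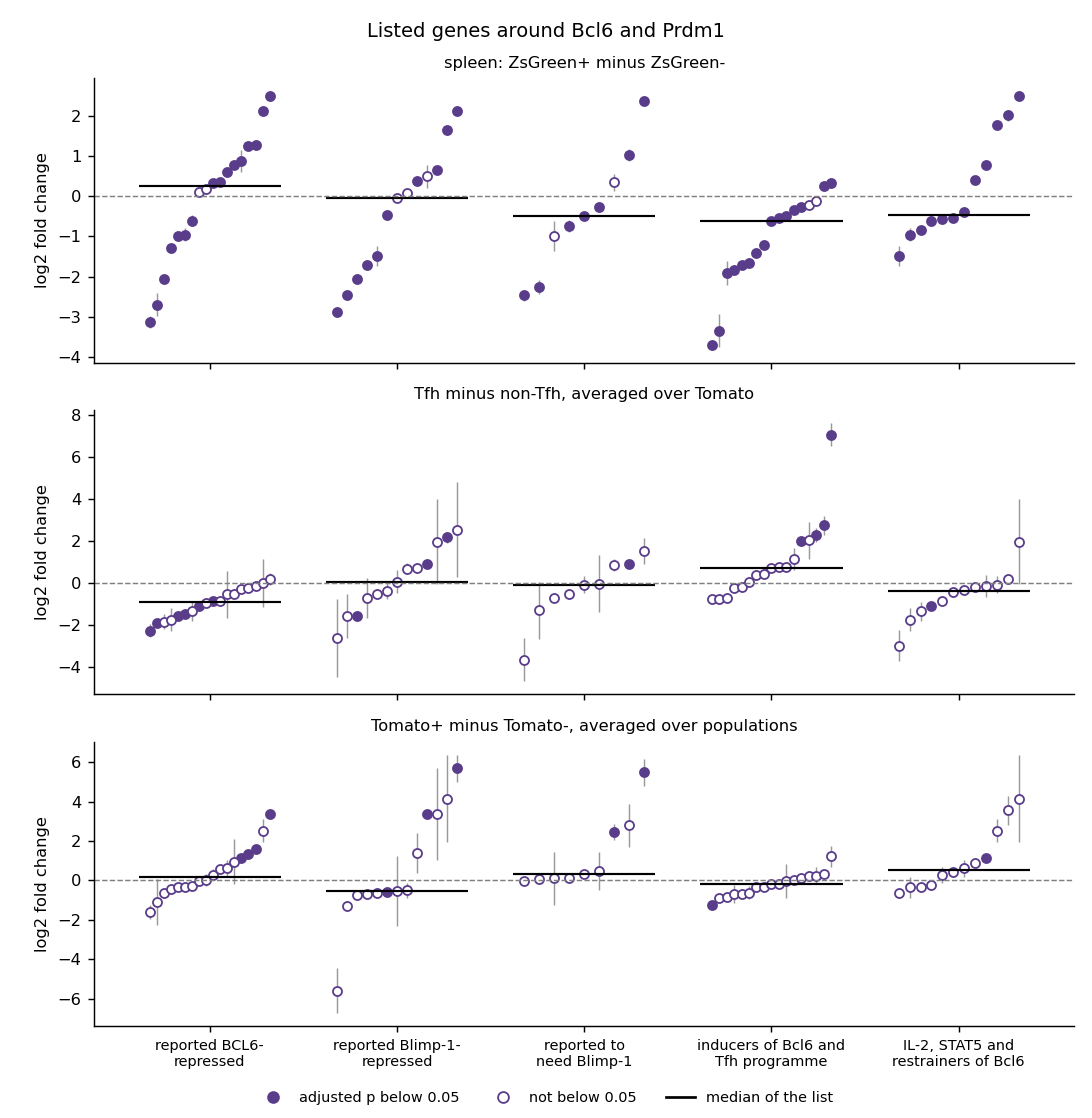
Log2 fold changes of the tested genes of 5 lists in 3 comparisons (rows of panels), each gene a circle with its standard error and each black line the median of the list. Filled circles passed an edgeR adjusted p below 0.05. In the spleen 9 reported BCL6-repressed genes rose and 7 fell, and in Tfh against non-Tfh cells 6 of them fell.

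The genes whose log2(RPKM + 1) followed each member most closely over the 12 libraries were named by Pearson correlation, among 7285 genes with a mean of at least 5 RPKM. For Bcl6 these were Stx11, which encodes a syntaxin of granule release (r = 0.989), Gna13, which encodes a G protein alpha subunit (0.986), Mif, a cytokine gene (0.978), Spry1, an inhibitor of receptor tyrosine kinase signalling (0.974), and Plekho1 (0.974). Over the 8 lymph node libraries alone the values were 0.971, 0.962, 0.939, 0.925 and 0.938 in the same order. Spry1 averaged 79.9 RPKM in Tfh Tomato+, 103 RPKM in Tfh Tomato-, 21.2 RPKM in non-Tfh Tomato+ and 20.4 RPKM in non-Tfh Tomato- cells, and 2.49 RPKM in spleen ZsGreen+ and 7.86 RPKM in spleen ZsGreen- cells. For Prdm1 the closest were the ribosomal protein gene Rpl13 (r = 0.977), Als2cl (0.932), Bst2, the tetherin gene (0.918), the RNA helicase gene Ddx27 (0.915) and 2310022A10Rik (0.914), and over the lymph node libraries 0.988, 0.949, 0.906, 0.890 and 0.907. Between Bcl6 and Prdm1 themselves r was -0.817 over the 12 and -0.812 over the 8 lymph node libraries, -0.793 within the 4 Tfh libraries and -0.101 within the 4 non-Tfh libraries. These values rest on groups that share tissue and sort, the libraries are not independent draws, and no p is given.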

How the data were processed

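Polyadenylated RNA was sequenced in 12 libraries, per the labels' protocols. The deposited tables list 29257 RefSeq transcripts, each with the authors' read count (whole numbers) and RPKM. In the spleen tables the headers of the count and length columns are swapped, and the column that fits the RPKM was used as the deposited counts. The submitters' processing notes name CASAVA 2.18, Bowtie2, SICER 1.1, edgeR and mm9, with no roles, and no source used here says whether counting used strand. Per symbol the row with the most reads was kept. Accessible chromatin was not used here.

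Counts were tested with edgeR 4.0.16 (R 4.3.3; TMM, filterByExpr, quasi-likelihood test), with Benjamini-Hochberg adjustment over all tested genes and a threshold of 0.05. The 4 spleen libraries were fitted alone and the 8 lymph node libraries together. Alternatives used DESeq2 1.42.0, limma 3.58.1 on log2(RPKM + 1) or log2(RPKM + 0.1), other filters and factors, and single libraries left out. The scripts were tested on simulated data. Bcl6, Prdm1 and the gene lists were chosen with earlier results of these data known. Beyond them, the text names the sorting genes, Ifng, up to 4 called members of a list with the smallest adjusted p, and the 5 closest genes by correlation. Members that other counts or markers turn on were named after their values were seen. Promoter sequences are from RefSeq on GRCm38.p6. A few listed genes are not reported here.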

Additional observations from a re-analysis of the deposited data

How the results depend on the processing

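Of 263 alternative values for the 16 fitted differences, 236 kept their direction and their side of the threshold, 10 newly passed, 7 no longer passed and 10 changed sign. The spleen calls of both genes and the averaged Tfh difference of Bcl6 passed in every setting run. Prdm1 has no value in the lymph node with the filter of 5 RPKM, since its mean there is lower.

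The Bcl6 difference between Tfh and non-Tfh cells among Tomato+ cells (2.08) newly passed with DESeq2 (2.09), limma on log2(RPKM + 1) (2.12) and on log2(RPKM + 0.1) (2.16), median-of-ratios factors (2.09), no filter (2.09) and the filter of 5 RPKM (2.09), and it ran from 1.95 to 2.19 with single libraries left out, passing in 4 of 8. Among Tomato- cells (2.14) it no longer passed with summed transcript rows (2.14), in the 4 compared libraries alone (2.15) or without the second Tomato- library of both populations (2.11), and it ran from 1.89 to 2.44 with single libraries left out, missing without the second Tfh Tomato+, the first Tfh Tomato- or either non-Tfh Tomato- library. The cause was not tested.

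Signs of the fitted differences turned only with single libraries left out, in differences that passed in no setting. The Tomato difference ran from -0.46 to 0.0093 for Bcl6 and from -2.65 to 3.37 for Prdm1 in Tfh cells, turning without the first Tfh Tomato- library for Bcl6 and the second Tfh Tomato+ library for Prdm1. It ran from -0.42 to 0.13 for Bcl6 and from -1.07 to 0.11 for Prdm1 in non-Tfh cells, turning without the first non-Tfh Tomato- library for Bcl6 and the first non-Tfh Tomato+ library for Prdm1. Averaged over both populations it ran from -1.49 (without the second Tfh Tomato+ library) to 1.53 for Prdm1, and was -0.03 without the first Tfh Tomato- library. The interaction ran from -0.36 to 0.19 for Bcl6, turning without the second Tfh Tomato+, the first Tfh Tomato- or the second non-Tfh Tomato- library, and from -2.33 to 3.70 for Prdm1, turning without the second Tfh Tomato+ library. The log2 ratio difference in the spleen (-1.80) was -1.56 with log2(RPKM + 1). With single libraries left out the ratio difference for Tomato ran from -3.12 to 1.85 in Tfh cells, from -0.34 to 0.92 in non-Tfh cells and from -1.42 to 1.07 averaged, so its sign turned, while that for Tfh against non-Tfh cells ran from 2.19 to 7.17 among Tomato+ and from 3.82 to 7.40 among Tomato- cells.

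With the replicate block, which pairs libraries by number only (correlation of deviations 0.119 in the spleen and -0.01 to 0.03 in the lymph node), Bcl6 was at -1.12 in the spleen and 2.11 in the averaged Tfh difference, Prdm1 at 0.68 and -2.96, and no call of either gene changed. With the block 75 genes passed in the averaged Tfh difference (126 without), 23 in the Tomato difference of non-Tfh cells (39) and 1 in the Tfh difference among Tomato+ cells (9). Over all settings the number of called genes ran from 1981 to 3681 in the spleen (3074 reported), 0 to 291 for Tomato in Tfh (13), 3 to 648 in non-Tfh cells (39), 38 to 697 averaged (77), 0 to 465 for Tfh against non-Tfh among Tomato+ (9), 0 to 606 among Tomato- cells (21), 27 to 815 averaged (126) and 0 to 210 for the interaction (0). The first Tfh replicates hold 19 and 27 Prdm1 reads, and both are deeper than the second replicates of their groups. Reads over genes were 19273612 against 16129521 in Tomato+ and 20225404 against 17464889 in Tomato- cells. The cause of the replicate gap in Prdm1 was not tested.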
